A study of Mus musculus with 16 samples.

Results

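The loci described here are stretches of the mouse genome that carry no gene name on the array and are called by their coordinates, with _F or _R for the strand, as in chr5:35975265-35982561_R. Of the 55681 probe names of the array that are no controls, 16194 belonged to such loci, under 4610 locus names. The members were selected on measured values: a probe was kept if the scanner software marked it as well above background on all arrays of at least 1 of the 6 groups, which 2943 probes (18.2%) at 1860 locus names did. The same filter kept 44.0% of all other probes, 51.0% of probes with a RefSeq mRNA accession, called coding probes from here on, and 22.1% of probes with a RefSeq non-coding accession. A locus was represented by 1 tested probe for 1197 names, by 2 or more for 657 and by 3 or more for 266, and the 1860 names merged into 1586 separate stretches, so neither probes nor names are independent of each other.

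The RNA came from the gastrocnemius muscle of male C57BL6 littermates aged 8 to 16 weeks, 3 WT mice and 3 Het mice with 1 functional copy of Eif6. No treatment is named, and all mice were kept in standard housing with free access to chow. From each mouse total RNA of whole muscle and RNA of the polysome fractions, pooled from a sucrose gradient, were hybridised to 1 array each, and monosome RNA was hybridised for WT mice 1 and 2 and Het mice 1 and 3, which makes 16 arrays in 6 groups. The study asked which transcripts are loaded differently on polysomes when Eif6 is reduced. All values are log2 signals after quantile normalization of the 16 arrays. The polysome ratio of a mouse is its polysome signal less its whole-muscle signal, both in log2, and the loading difference is the mean ratio of the Het mice minus that of the WT mice.

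Long intergenic non-coding RNAs are transcribed from chromatin between protein-coding genes, and are usually spliced and polyadenylated like mRNAs but lack a long open reading frame. Some stay in the nucleus, others reach the cytoplasm, and some of those travel with ribosomes or encode a short peptide. In a sucrose gradient a transcript sediments by the mass bound to it, so RNAs read by several ribosomes collect in the polysome fractions, those with a single ribosome in the monosome fraction, and nuclear RNAs are underrepresented in both. Eif6 binds the large ribosomal subunit and keeps it from joining the small subunit too early.

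The 60-base probes of 9 loci are printed because the results turn on them. The first 5 belong to loci whose RNA was low in polysomes, the next was brighter in 3 of the 4 monosome arrays than in any other array, and the last 3 are among the brightest probes. Positions are mm9 as the array files give them, the probes read 5′ to 3′ on the named strand, and capitals mark runs of 3 or more G or C.
A_30_P01032382, chr5:35976938-35976997, reverse strand: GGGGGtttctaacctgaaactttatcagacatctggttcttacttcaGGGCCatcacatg
A_30_P01031754, chr19:5802130-5802189, reverse strand: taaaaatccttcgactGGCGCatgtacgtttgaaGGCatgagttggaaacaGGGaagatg
A_30_P01020935, chr19:5798256-5798315, reverse strand: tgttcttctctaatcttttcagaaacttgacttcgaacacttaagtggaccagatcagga
A_30_P01026195, chr2:156214243-156214302, reverse strand: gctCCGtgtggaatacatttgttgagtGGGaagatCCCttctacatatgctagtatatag
A_30_P01033236, chr3:96216850-96216909, reverse strand: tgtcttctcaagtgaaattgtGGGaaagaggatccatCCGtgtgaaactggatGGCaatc
A_30_P01020128, chr4:141532840-141532899, forward strand: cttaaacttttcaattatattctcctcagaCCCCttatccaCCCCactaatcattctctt
A_30_P01025806, chr13:19617600-19617659, forward strand: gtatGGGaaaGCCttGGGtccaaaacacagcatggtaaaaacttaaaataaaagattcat
A_30_P01020570, chr12:73862399-73862458, forward strand: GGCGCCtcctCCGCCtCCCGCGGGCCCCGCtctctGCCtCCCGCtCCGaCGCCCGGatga
A_30_P01031264, chr12:73862326-73862385, reverse strand: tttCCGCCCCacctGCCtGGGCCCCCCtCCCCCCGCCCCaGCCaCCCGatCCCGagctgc
The GC content was 45%, 45%, 38.3%, 41.7%, 45%, 36.7%, 35%, 80.0% and 78.3% in that order, so 2 of the 3 bright probes were far richer in G and C than the others.

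The arrays differed in quality, and a pair of them stood apart. The mean correlation of an array with the others of its group ran from 0.782 to 0.979, and was 0.782 for the WT monosome arrays and 0.903 for WT polysome 2, the lowest of the polysome arrays. WT monosome 2 was the dimmest array. The 75th percentile of the processed signal ran from 12.7 to 150 units, the share of probes well above background from 23.5% to 45.9%, and the number of locus probes well above background from 1315 to 4074. No spot was saturated. All 14 skeletal muscle fibre markers were well above background on all 16 arrays. Eif6 (probe A_52_P85864) read 9.66, 9.15 and 8.97 in WT whole muscle and 8.39, 8.40 and 8.21 in Het, a difference of -0.93 with no overlap (exact permutation p = 0.1, two-sided, the smallest that 3 against 3 mice allow; limma adjusted p = 0.613).

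Detection of the loci was uneven. The members were well above background on all arrays of WT whole muscle for 2176 probes, of WT polysomes for 2004, of WT monosomes for 2015, of Het polysomes for 2483, of Het monosomes for 1848 and of Het whole muscle for only 1206, whose arrays were the 3 dimmest of whole muscle. Of the 2943 members 989 passed in all 6 groups and 477 in 1 group only, among them 171 in Het polysomes alone and 0 in Het whole muscle alone. Probes that passed in 1 group had a median highest group mean of 4.82, against 3.95 for the 1447 locus probes that missed the filter by 1 array. A probe that passed only through the group where it was high had to differ between groups, so counts and medians over all tested members carry that limit, and those over the 989 probes above background on all 16 arrays, or the 1118 above background on all 12 whole-muscle and polysome arrays, are given first or beside those on the class.

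The members were dimmer than coding probes. Their mean log2 signal ran from 2.26 to 16.7 with a median of 5.16, and the median of the detected coding probes was 6.32. Locus lengths ran from 90 to 533972 bases with a median of 13001. The detected probes held 48.5% ± 9.39 G and C (SD over probes), the locus probes that were not detected 43.1% ± 6.97, and detected coding probes 42.6% on average. Since the brightness of a probe depends on its sequence, no level of 1 probe is set against that of another as a measure of abundance.

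Of the brightest members, 4 are described. A_30_P01025806, at a locus of 522 bases between Stard3nl and Epdr1, read 14.94, 16.83 and 16.27 in WT whole muscle, 16.74, 16.31 and 17.25 in Het whole muscle, 17.05, 17.25 and 16.92 in WT polysomes and 15.75, 15.42 and 16.72 in Het polysomes. Its polysome ratio was therefore above 0 in every WT mouse (2.12, 0.42 and 0.66) and below 0 in every Het mouse (-0.99, -0.89 and -0.53), and the mean over the 6 mice was 0.13 ± 1.19 (SD). A_30_P01026230, between Fibcd1 and Lamc3, had a mean ratio of -0.05 ± 0.81. The neighbouring probes A_30_P01020570 and A_30_P01031264, on opposite strands between Dhrs7 and Ppm1a, read 15.38 and 15.30 on average, with mean ratios of -0.05 ± 0.66 and 0.25 ± 0.48. In the limma fit across all 20250 tested probes none of the 4 passed between polysomes and whole muscle (adjusted p from 0.404 to 0.906). All 4 followed the likeness described further below, with correlations from 0.80 to 0.89.

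In the mean over both genotypes, fewer locus probes than other probes differed between polysomes and whole muscle. The locus ratios ran in opposite directions in the genotypes, with a median of 0.46 in WT and -0.32 in Het on all 16 arrays. Within WT alone, 38.5% of these locus probes were higher and 6.98% lower, where 27.7% and 15.7% of all such probes were, so the deficit is not general. With an adjusted p under 0.05 in limma, 132 of the 989 locus probes above background on all 16 arrays (13.3%) were higher in polysomes and 94 (9.50%) were lower, against 27.3% and 18.5% of all such probes. Over all 2928 tested members the counts were 147 (5.02%) and 209 (7.14%), against 13.1% and 11.6% of all tested probes. Of the 1118 locus probes above background on all 12 arrays, 86 had a ratio above 0 in all 6 mice and 84 below 0, which is 7.69% and 7.51%, and of 10356 other such probes 20.9% and 17.2%. The median ratio on all 16 arrays was 0.14 over locus probes and 0.22 over coding probes. In bulk RNA, fewer cells of a type and less RNA per cell cannot be told apart in any of these values. The 356 calls over all tested members became 206 without WT mouse 3, 205 without Het mouse 1, 181 without Het mouse 3 and 464 without WT mouse 2.

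The loci with several probes gave repeated readings of one stretch. A rule added after the data were seen took the 68 locus names with 3 or more probes above background on all 12 arrays (238 probes), of which 3, on a chromosome from which no locus is named here, are counted only. At 46 of the 68 every probe lay on the same side of 0, 24 lower and 22 higher in polysomes. The range between the probes of a locus had a median of 0.38 and ran from 0.08 to 2.00. Over the 190 names with 2 or more such probes the range had a median of 0.31 and was under 0.5 at 135 and over 1 at 9, beside an SD of 0.53 of the mean ratio over all 1118 probes. The 6 lowest and the 6 highest of these loci, with 40 probes, are described next. They were picked by the same ratio that is tested, so that 35 of the 40 passed follows in part from the choice.

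**Figure D1:**
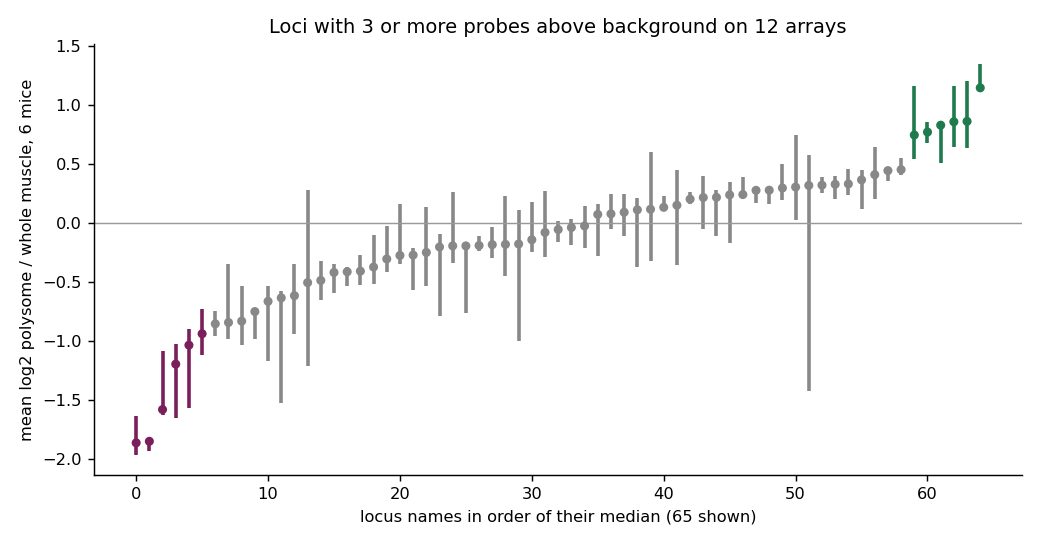
Mean log2 polysome to whole-muscle ratio over 6 mice (vertical axis) at 65 locus names with 3 or more probes above background on all 12 arrays, in order of their median (horizontal axis). The point is the median over the probes of a locus and the line runs from the lowest to the highest probe. The 6 lowest medians, in purple, run from -1.86 to -0.94, and the 6 highest, in green, from 0.74 to 1.14.

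The lowest pair of loci lay beside the probe of Malat1, a long nuclear RNA of splicing speckles. At chr19:5801802-5802597_R the 3 probes had mean ratios from -1.97 to -1.64, and the median over the probes was -1.62, -2.85 and -1.45 in the WT mice and -1.80, -2.43 and -0.96 in the Het mice. At chr19:5798135-5800557_R the 3 probes ran from -1.93 to -1.85, with medians of -2.09, -1.80 and -2.18 in WT and -1.59, -2.20 and -1.51 in Het. All 6 probes were lower in polysomes in all 6 mice (limma adjusted p from 0.000699 to 0.00794). The 6 probes and the Malat1 probe of the array lay on the same strand within 6614 bases, a stretch shorter than the 6983 bases that RefSeq gives Malat1 in GRCm38.p6, and the Malat1 probe itself, with a mean signal of 4.33, had a ratio of -1.03 that did not pass (adjusted p = 0.115). Whether the 2 loci are part of Malat1 cannot be settled from these positions, since no mm9 gene model was used here. Among the 6, A_30_P01020935 read 9.49, 9.50 and 9.73 in WT whole muscle, 8.42, 9.11 and 9.61 in Het whole muscle, 7.43, 7.71 and 7.90 in WT polysomes and 6.69, 6.87 and 8.16 in Het polysomes, so whole muscle and polysomes did not overlap. In monosome RNA it read 10.63 and 7.53 in WT and 10.43 and 11.48 in Het: in 3 of the 4 monosome arrays the probe was brighter than in any whole-muscle array, and WT monosome 2 was the exception.

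The third lowest, chr2:156213798-156216885_R, holds probes of 2900097C17Rik, now Norad, a cytoplasmic RNA that binds Pumilio proteins. Its 3 probes had ratios of -1.63, -1.58 and -1.08 (limma adjusted p from 0.00488 to 0.0146). The lowest, A_30_P01026195, gave -1.66, -2.68 and -1.44 in WT and -1.69, -0.55 and -1.74 in Het, so Het mouse 2 showed the smallest loss. The third probe, A_30_P01022011, did not pass without Het mouse 1 or Het mouse 3 (limma adjusted p = 0.058 and 0.0583). Of Norad's own 4 probes, the 2 that lay inside the locus had ratios of -1.84 and -1.96. These probes and those of the locus span 4218 bases, and RefSeq gives Norad 4917 bases, with the same limit.

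Of the other low loci, chr6:31170350-31287353_F, between Lncpint and Mkln1, had 3 probes from -1.66 to -1.03, and its median was below 0 in every mouse (-1.19, -0.78 and -1.47 in WT and -1.04, -0.94 and -1.76 in Het). At chr3:21964899-21974524_R, between Agtr1b and Tbl1xr1, the median was -1.12, -1.03 and -0.93 in WT and -0.62, -0.61 and -1.16 in Het, and A_30_P01022266 did not pass without WT mouse 3, Het mouse 1 or Het mouse 3 (limma adjusted p from 0.0548 to 0.077). The locus chr17:39983902-39985688_F holds the Rn18s and Rn45s probes, so its RNA lies within ribosomal RNA precursor. Its median was -1.76, 0.62 and -0.95 in WT and -1.38, -1.68 and -1.13 in Het, and WT mouse 2, whose polysome array stood apart, was the one mouse above 0. Its probes A_30_P01020514 and A_30_P01023029 passed narrowly (limma adjusted p = 0.0496 and 0.0456) and not without any 1 of the other 5 mice (0.0973 to 0.133), and A_30_P01027180 not without WT mouse 3 (0.0635) or Het mouse 3 (0.0598).

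**Figure D2:**
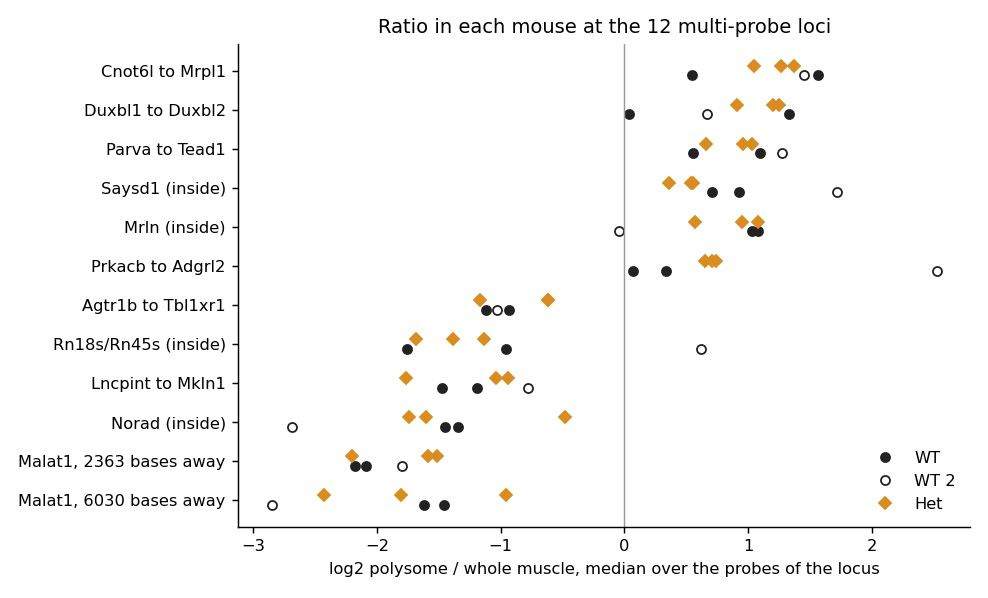
Median log2 polysome to whole-muscle ratio over the probes of a locus (horizontal axis) in each of the 6 mice at the 12 loci with the lowest and highest medians (vertical axis). Filled circles are WT mice, the open circle is WT mouse 2 and diamonds are Het mice. At 5 of the 6 low loci all mice lie below 0, and at chr17:39983902-39985688_F WT mouse 2 lies at 0.62.

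Single probes were ranked as the brightest of their locus, above background on all 12 arrays, with 1 sign in all mice. Among them the largest loss from polysomes was at chr5:35975265-35982561_R, 7297 bases between Acox3, a peroxisomal oxidase gene, and Htra3, a secreted protease gene. A_30_P01032382 read 11.46, 11.24 and 11.05 in WT whole muscle, 11.49, 11.16 and 11.05 in Het whole muscle, 7.18, 6.77 and 7.16 in WT polysomes and 7.59, 9.09 and 7.0 in Het polysomes. The 2 kinds of RNA did not overlap, and the ratio of -3.78 ± 0.28 (SE, n = 6 mice; limma adjusted p = 0.000699) was -3.71 without WT polysome 2 and WT monosome 2. Monosome RNA read 8.89 and 7.91 in WT and 9.54 and 9.22 in Het, below every whole-muscle array. A second probe of the strand, A_30_P01021070, had a ratio of -3.89. On the opposite strand A_30_P01024606 had a ratio of -0.97 (adjusted p = 0.0046), and the other probes of both strands were not above background on all 12 arrays.

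The locus chr3:96215885-96218756_R holds the probe of Terc, the RNA template of telomerase. Its probe A_30_P01033236 read 9.75, 9.46 and 9.90 in WT whole muscle, 9.66, 9.83 and 9.28 in Het, 7.89, 7.46 and 7.64 in WT polysomes and 8.28, 8.40 and 7.92 in Het polysomes, a ratio of -1.71 ± 0.14 (SE; limma adjusted p = 0.000816). The Terc probe had a mean ratio of 0.26 that did not pass (limma adjusted p = 0.274), from 1.31, 0.50 and 1.18 in WT and -0.39, -0.58 and -0.44 in Het, so it split by genotype while the locus probe was below 0 in every mouse. The locus probes lay 1296 to 1787 bases from the Terc probe, and Terc is 397 bases long in RefSeq. The other detected probe of the locus, A_30_P01028273, which was not above background on all 12 arrays, had a ratio of -0.44. The differences between these probes were not tested.

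A_30_P01020128, at chr4:141527564-141547339_F between Fhad1 and Tmem51, was brighter in 3 of the 4 monosome arrays than in any whole-muscle or polysome array, and WT monosome 2 was the exception, below every whole-muscle array. It read 13.25, 13.25 and 12.54 in WT whole muscle, 12.73, 12.80 and 13.36 in Het, 10.78, 9.21 and 11.52 in WT polysomes, 11.77, 12.21 and 11.67 in Het polysomes, 15.38 and 11.07 in WT monosomes and 15.81 and 15.96 in Het monosomes. Polysomes lay below whole muscle in all 6 mice (ratio -1.79, limma adjusted p = 0.0146, and 0.0564 without Het mouse 3). Polysome minus monosome signal was -4.60 and -1.86 in WT mice 1 and 2 and -4.04 and -4.28 in Het mice 1 and 3. Their mean of -3.70 did not pass (adjusted p = 0.0551), and was -4.38 with an adjusted p of 0.0285 without WT polysome 2 and WT monosome 2 and -3.01 with 0.0161 without WT mouse 1. It did not pass without Het mouse 1 (limma adjusted p = 0.384) or without Het mouse 3 (0.323).

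The remaining low probes under the rule were A_30_P01021208 at chr2:143963320-143984245_F (-2.11, limma adjusted p = 0.00493) and A_30_P01019455 at chr11:95573399-95587949_F, which holds the non-coding gene B130006D01Rik (-1.96, adjusted p = 0.00946). Both lost more in WT mice 1 and 3, by 2.87 to 3.97, than in the other 4 mice, by 1.01 to 2.08.

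At the other end lay loci raised in polysomes. The highest ratio among the brightest probes of their loci that were above background on all 12 arrays was at A_30_P01032978. This probe, at chr15:77164450-77201325_R between Rbfox2 and Apol7a, read 6.32, 6.71 and 6.54 in WT whole muscle, 7.15, 6.42 and 6.91 in Het, 7.92, 8.68 and 8.37 in WT polysomes and 7.75, 7.68 and 8.12 in Het polysomes. All polysome arrays lay above all whole-muscle arrays, with a ratio of 1.41 ± 0.16 (SE; limma adjusted p = 0.00202). Higher ratios were measured at dimmer probes outside that limit, and are not given as results since the detection filter could fix their direction. At chr5:96591892-96606467_F, between Cnot6l and Mrpl1, where RefSeq now lists the coding model Gm52799, 3 probes ran from 1.13 to 1.35. A_30_P01026296, at a locus on chromosome 14, shares a 40-base run with 1 of them and had a ratio of 1.27, so these are not separate readings. At chr7:119735208-119822808_R, between Parva and Tead1, the medians were 0.55, 1.28 and 1.1 in WT and 0.96, 1.03 and 0.66 in Het. Of its 3 probes, A_30_P01019204 did not pass without Het mouse 1 (limma adjusted p = 0.0554) and A_30_P01031680 without WT mouse 3 or any Het mouse (0.0798 to 0.116).

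Several raised loci hold a probe of a protein-coding gene, while chr14:26834450-26847000_F and chr3:146515333-146557069_F, also given here, hold none. The 5 probes of chr10:69669025-69686275_F, from 0.67 to 0.86, share the locus with the probe of 2310015B20Rik, now Mrln, which encodes the muscle micropeptide myoregulin and had a ratio of 0.80. All 5 passed the test (limma adjusted p up to 0.0433) but none without any 1 mouse other than WT mouse 2 (0.0549 to 0.133), and WT mouse 2 was the exception with a median of -0.05 against 0.57 to 1.08 in the others. The locus chr14:20893694-20903726_R (median 0.83, with 3 of 4 probes past the test and none of them without Het mouse 1 or Het mouse 3, at adjusted p from 0.0562 to 0.0719) holds the Saysd1 probe, chr7:4827340-4863315_F (A_30_P01027439, 1.23) that of Isoc2a, and A_30_P01018579 (1.15) overlaps a Tnrc18 probe with a ratio of 1.17 by 59 bases. At chr14:26834450-26847000_F (median 0.86) probe A_30_P01018424 shares 45 bases with an Anxa11 probe, and 2 of its 4 probes passed. The other 2, A_30_P01019479 and A_30_P01028064, passed only without WT mouse 1 (adjusted p = 0.0189 and 0.0177). At chr3:146515333-146557069_F the median was 0.74, with WT mouse 2 at 2.53 and the other mice at 0.07 to 0.74, and its 1 called probe, A_30_P01022868, did not pass without any 1 of the Het mice (adjusted p from 0.0525 to 0.0599).

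Named long non-coding RNAs, from a list of 34 genes chosen with earlier results of these data known, are given beside the loci. Of 17 tested by their brightest probe, 2 (11.8%) were higher in polysomes and 3 (17.6%) lower, against 13.1% and 11.6% of all tested probes, with a median ratio of -0.52 against 0.10. The higher ones were Peg13 (0.94) and the brighter probe of Tug1 (0.85), whose other probe was lower (-0.89, limma adjusted p = 0.0286), so Tug1 has no single direction here. The lower ones were H19, an imprinted RNA of growing muscle (-2.45), Snhg6, a snoRNA host (-2.82), and Rmrp, the RNA of RNase MRP (-1.95). The probes of Snhg6, Rmrp and Tug1 were not above background on all 12 arrays, so the sizes of their ratios are uncertain.

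A probe of a named gene lay inside 177 of the 1860 locus names on the same strand and inside 110 on the opposite strand only. The other 1573 had none, and their median distance to the nearest was 21108 bases. In 76 pairs of a locus probe and a same-strand gene probe that were both above background on all 12 arrays, at 32 loci, the ratios differed by a median of 0.21 and had the same sign in 58. The probes of 23 pairs overlapped. In 76 pairs of probes on opposite strands of a locus, the ratios differed by a median of 0.35 and had the same sign in 44. Of all members, 60 (2.04%) shared a run of 30 or more bases with a probe placed elsewhere.

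The polysome ratio of the loci split by genotype. Of the 989 locus probes above background on all 16 arrays, 381 (38.5%) were higher in polysomes and 69 (6.98%) lower within WT in limma, where 27.7% and 15.7% of all such probes were. Within Het the counts were 51 (5.16%) and 193 (19.5%), where 14.8% and 15.6% of all were. With array brightness as a term the WT counts were 152 (15.4%) and 28 (2.83%), where 9.03% and 6.89% of all were, and the Het counts 1 (0.101%) and 19 (1.92%), where 1.17% and 3.53% of all were, so the share of loci called lower in Het was above that of all probes without the term and below it with the term. The median ratio was 0.46 in WT and -0.32 in Het over these locus probes, and 0.24 and 0.21 over 6180 coding probes. Over all 2928 tested members, which include the probes detected in 1 group only, 371 (12.7%) were higher and 174 (5.94%) lower within WT, where 10.1% and 10.3% of all were, and 41 (1.40%) and 100 (3.42%) within Het, where 3.36% and 4% of all were.

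Coding probes of similar signal served as the reference, in bins of 1 log2 unit. Among probes above background on all 16 arrays the median locus probe differed from them by 0.04, 0.19 and 0.37 in the WT mice and by -0.42, -0.49 and -0.46 in the Het mice, so the groups did not overlap and WT mouse 1 was close to 0. From the fit the difference was 0.22 in WT and -0.49 in Het, and -0.06 over all mice. In the bin from 7 to 8 the locus median was 0.56 in WT and -0.34 in Het, and the coding median 0.24 and 0.19. Against probes with a RefSeq non-coding accession the Het difference was -0.02 and the WT difference 0.51. Over all tested members the differences were 0.06, 0.40 and 0.27 in WT and -0.34, -0.31 and -0.46 in Het, values that the probes detected in 1 group only share in. Over all tested members the fit gave 0.30 in WT and -0.40 in Het. The WT value was 0.16 without WT mouse 2, 0.0888 with normexp background correction, 0.11 in the authors' values and 0.00847 with no filter, and the Het value -0.15, -0.18 and -0.0521 under the last 3 and 0.0465 against probes with a RefSeq non-coding accession.

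**Figure D3:**
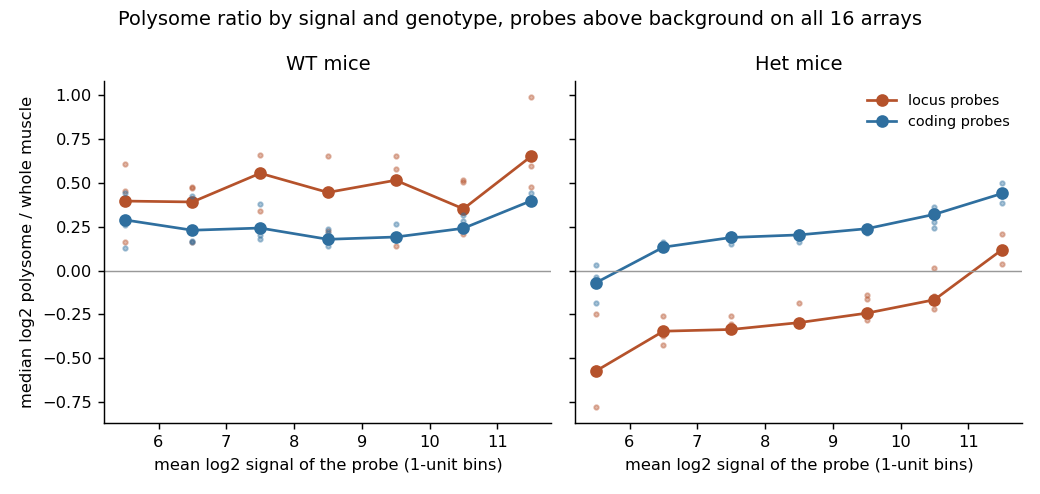
Median log2 polysome to whole-muscle ratio (vertical axis) of locus and coding probes above background on all 16 arrays by mean log2 signal in bins of 1 unit (horizontal axis), WT and Het in separate panels. Small points are single mice. From 5 to 12 the locus line lies above the coding line in WT and below it in Het.

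Over the 16 arrays many loci rose and fell together with probes of olfactory and vomeronasal receptors, genes of sensory neurons. This list was chosen after the data were seen, and of its 1485 probes 76 were detected and 17 were above background on all arrays. The Pearson correlation of a probe with the median of those 17 had a median of 0.81 over the 989 locus probes and -0.10 over 6180 coding probes. It was over 0.8 for 517 locus probes (52.3%), 458 coding probes (7.41%) and 13 of the 17 receptors themselves. The points are the same 16 arrays for every probe and share their brightness and normalization, so the values are a description. Without WT polysome 2 and WT monosome 2 the median was 0.63 over the locus probes and -0.16 over coding probes, and 304 locus probes were over 0.8.

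**Figure D4:**
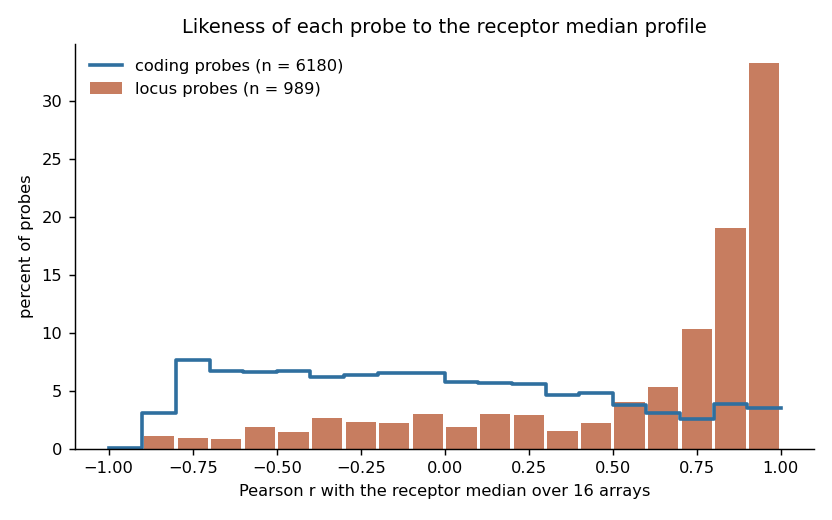
Distribution of the Pearson correlation with the receptor median over 16 arrays (horizontal axis), as percent of probes (vertical axis), for locus and coding probes above background on all arrays. The locus probes pile up near 1, with a median of 0.81, and the coding probes have a median of -0.10.

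The 517 probes had a median ratio of 0.75 in WT and -0.46 in Het, and the receptors 0.83 and -0.49. The 162 locus probes with a correlation below 0 had -0.11 and 0.12. The 310 between, from 0 to 0.8, had 0.25 and 0.02. In base composition the first and the middle set were close, with 52.9% and 51.7% G and C and 39.7% and 36.1% of probes with CCCC on the probe strand, while the set below 0 had 43.7% and 13.0%. The median loading difference was -1.22 in the first set, -0.10 in the middle one and 0.22 below 0. The sets were chosen for their likeness to the receptors over these same arrays, and the receptors had a median loading difference of -1.47, so the ratios and loading of the sets follow from the choice. Of the 3 sets 25.0%, 34.5% and 61.1% lay at loci with 3 or more tested probes. The 3 multi-probe loci lowest in polysomes, those beside Malat1 and at Norad, had median correlations of -0.23, 0.08 and -0.40. The other low loci, chr6:31170350-31287353_F, chr17:39983902-39985688_F and chr3:21964899-21974524_R, had 0.14, 0.77 and -0.08.

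**Figure D5:**
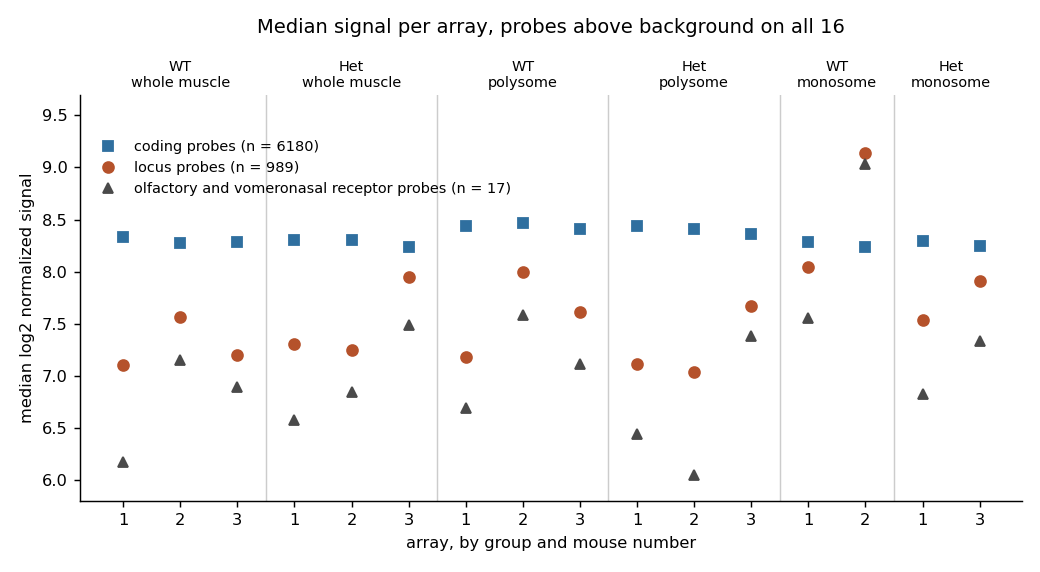
Median log2 signal (vertical axis) of coding, locus and receptor probes above background on all arrays, for each of the 16 arrays (horizontal axis). WT monosome 2 has the highest locus and receptor medians, 9.14 and 9.03, while the locus medians of the other arrays lie between 7.03 and 8.04.

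Markers of some other cells moved with this likeness and those of others did not. Of 5 erythroid markers, all tested and 4 on all arrays, the median correlation was 0.61, and their summed log2 signal was 15.13 to 15.74 in WT and 15.55 to 15.67 in Het whole muscle, 16.30 to 17.54 in WT and 15.28 to 15.71 in Het polysomes, and 16.81 to 17.67 in WT and 16.46 to 16.56 in Het monosomes. The 3 endothelial markers had a median correlation of 0.92, and summed signals of 11.33 to 11.96 and 10.84 to 12.50 in WT and Het whole muscle, 11.13 to 13.23 and 10.88 to 12.61 in polysomes and 12.31 to 13.96 and 11.55 to 12.37 in monosomes. The median correlation was 0.06 for 3 fibroblast markers, -0.04 for 2 Schwann cell markers, -0.12 for 4 macrophage markers, -0.18 for 1 satellite cell marker and -0.46 for 4 adipocyte markers. The 14 muscle markers had a median of -0.34 and summed signals of 19.65 to 20.52. The part of these cells and of base composition in the result was not tested.

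The loading difference between Het and WT was then tested directly. No locus probe passed an adjusted p under 0.05 in limma (0 of 2928, smallest adjusted p 0.110), and 0 of all tested probes did. The 0 locus probes became 151 with normexp background correction, 147 of them lower, and 170 in the authors' values, 164 of them lower. At the study's threshold, an absolute log2 difference over 1 with an unadjusted p under 0.05, 113 locus probes (3.86%) were higher in Het and 615 (21.0%) lower, where 6.57% and 7.34% of all tested probes were. When only probes above background on all 16 arrays were tested, 2 of 989 (0.202%) were higher and 266 (26.9%) lower, where 0.535% and 6.62% of all such probes were. The 266 fell to 0 without Het mouse 2 or without Het mouse 3, to 142 without WT mouse 1, and were 297 without WT mouse 2. They also fell to 0 without the replicate block, which pairs polysome and whole muscle of a mouse, and to 0 with array brightness as a term, while the sizes did not fall: the median loading difference over the 989 probes was -0.51 without the term and -0.67 with it, the median SE 0.32 and 0.55, and the number with an unadjusted p under 0.05 and a lower ratio in Het 405 and 268. Against coding probes of similar signal the WT and Het medians were 0.31 and -0.49 with the term.

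The lowest loading difference among loci whose groups did not overlap was -2.92 at A_30_P01017494 (chrX:20555593-20591971_R, on the strand opposite the non-coding gene A230072C01Rik). Its ratios were 2.71, 1.99 and 1.26 in WT and 0.69, -1.53 and -1.96 in Het (limma adjusted p = 0.127). A_30_P01028255 (-2.92) and A_30_P01021894 (-2.66) followed. The highest was 1.81 at A_30_P01026145. The next, A_30_P01032055 at chr14:106250821-106261843_R near Spry2, read 7.22, 7.22 and 7.13 in WT and 6.92, 7.10 and 7.16 in Het whole muscle, 4.65, 4.90 and 5.23 in WT polysomes and 6.45, 6.37 and 6.68 in Het polysomes. The polysome arrays of the genotypes did not overlap while whole muscle nearly coincided, and the loading difference of 1.70 did not pass (adjusted p = 0.110). Its correlation with the receptors was -0.60. A_30_P01022640 (1.47) was the third.

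Within 1 kind of RNA few loci could be told apart by genotype. The probes named here are the brightest of their locus, above background on all arrays compared, with groups that did not overlap, and other probes of a locus could differ more. In whole muscle 0 locus probes and 0 of all tested probes passed an adjusted p under 0.05 in limma, and 7 locus probes passed without WT mouse 2. At the study's threshold 165 (5.64%) were higher in Het and 76 (2.60%) lower, where 1.63% and 2.94% of all were, and among probes above background on all 16 arrays 62 (6.27%) and 4 (0.404%), where 1.49% and 0.36% of all such probes were. The largest fall among them, -3.04 at A_30_P01022304 opposite Snhg3, came from 9.21, 8.49 and 9.26 in WT and 4.94, 5.64 and 7.26 in Het and did not pass (adjusted p = 0.827). A_30_P01024724 (-2.59) and A_30_P01019455 (-2.04) fell short likewise. A_30_P01021701 (1.64), A_30_P01019680 (1.56) and A_30_P01032048 (1.53) had the largest positive differences among them.

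In polysomes 0 locus probes and 0 of all tested probes passed an adjusted p under 0.05 in limma. At the study's threshold 29 (0.990%) were higher in Het and 43 (1.47%) lower, where 2.18% and 1.26% of all were, and among probes above background on all 16 arrays 3 (0.303%) and 22 (2.22%), where 1.18% and 1.61% of all such probes were. The largest positive differences under the same limits were 1.57 at A_30_P01032055, 1.55 at A_30_P01031414 and 1.47 at A_30_P01033124, the last pair at overlapping loci. At the locus of the last, its probe A_30_P01018666, not the brightest, had 1.84. The lowest under those limits were -1.70 at A_30_P01026361, -1.61 at A_30_P01017494 and -1.42 at A_30_P01029107.

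In monosome RNA, with 2 arrays a group, 15 locus probes (0.512%) were higher in Het and 3 (0.102%) lower in limma, where 0.395% and 0.109% of all were, and among probes above background on all 16 arrays 13 (1.31%) and 4 (0.404%), where 1.32% and 0.339% of all such probes were. The count of 18 was 0 with 75th percentile scaling, 98 with normexp background correction (61 higher and 37 lower) and 118 in the authors' values (69 and 49). It also changed with any 1 mouse left out. Without a mouse that has a monosome array, a group keeps 1 such array, which is assumed to vary like the arrays of the other groups. The count was 0 without WT mouse 3 and 1 without Het mouse 2. These mice have no monosome array and enter the fit only through the spread of the other groups.

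Polysome and monosome RNA of the same 4 mice differed by a median of -0.75 over the 989 locus probes and 0.27 over the 6180 coding probes above background on all 16 arrays, and by -0.56 and 0.40 over all tested ones. In the test over all members no locus probe passed in limma (smallest adjusted p 0.0551), and 0 of all tested probes did. The count changed with the mouse left out. A fit without a mouse that has monosome RNA leaves 1 mouse of a genotype, which is assumed to vary like the other genotype's mice. Among probes above background on all 16 arrays 72 of 989 (7.28%) were higher in polysomes and 549 (55.5%) lower, where 28.1% and 23.5% of all such probes were. A_30_P01029719 at chr17:46972160-46997919_R read 5.45 and 6.17 in polysomes and 8.11 and 7.91 in monosomes of WT mice 1 and 2, and 5.10 and 4.78 against 8.17 and 8.11 in Het mice 1 and 3, a mean difference of -2.70. A_30_P01023888, whose locus spans the ribosomal RNA locus above, had -2.32. The highest was A_30_P01020163 at chrX:157038750-157039018_F, 269 bases between Phka2 and Ppef1, with differences of 1.30 and 0.49 in WT and 2.40 and 2.06 in Het. A_30_P01026810 (1.55) and A_30_P01029156 (1.49) came next. These 5 probes passed among those above background on all 16 arrays, without WT mouse 1 (limma adjusted p from 0.0161 to 0.0233) and without WT mouse 2 (0.0285), and did not without Het mouse 1 (0.384) or Het mouse 3 (0.323).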

How the data were processed

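RNA of whole gastrocnemius muscle, pooled polysome fractions and monosome fractions was labelled with Cy3 and hybridised to 1-colour Agilent arrays, 1 sample per array. Per the file headers, the deposited scanner files were written by Agilent Feature Extraction and give for each spot a processed signal intensity and flags (well above background, saturated, control) whose values are 0 or 1, and the deposited value sheet holds the authors' log2 values of the same arrays, used only as an alternative. Probe positions and gene names come from the array's annotation in those files, on mm9.

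From there, the processed signal was put on the log2 scale, averaged over spots of a probe and quantile normalized over the 16 arrays, as the study's methods state. Control spots were left out. Tests used limma 3.58.1 in R 4.3.3 with p-values adjusted by Benjamini and Hochberg's method across the 20250 probes tested, and an adjusted p under 0.05 was a call. Array number and brightness limit the precision, and whole-muscle brightness split by genotype. Polysome ratios were formed within a mouse, since per the design text whole-muscle and fraction RNA of a number came from 1 animal. Other steps used Python 3.11.15 with pandas 2.3.3, numpy 2.4.6 and matplotlib 3.10.9, and in R the package data.table, version 1.17.8. Tested on simulated data with 100 changed probes of each size among 20250, the polysome comparison recovered 62% of changes of 2 on the log2 scale and 96% of 4, and the loading comparison 0% and 42%.

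The members and lists were chosen with earlier results of these data known. Named probes were 1 per locus name (the brightest): the 5 brightest, the 6 lowest and 6 highest polysome ratios of 1 sign in all mice among probes above background on all 12 arrays, the 3 lowest and 3 highest differences without overlap in each genotype comparison, and of polysome against monosome. The rule also picked strand pairs by their signal gap, which are left out because probe levels are not compared. One bright probe that the rule picked is not reported here. Multi-probe loci and the receptor list were added after the data were seen. RefSeq (GRCm38.p6) served for current names, gene order and lengths. Alternatives were other scalings and backgrounds, the authors' log2 values, filters, slide, array brightness, the replicate block and leaving out mice.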

Additional observations from a re-analysis of the deposited data

Results flagged for a closer look

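At 2 named probes the ratio of polysome to whole-muscle signal was above 0 in every WT mouse and below 0 in every Het mouse. The loading difference was -1.87 at A_30_P01025806 (limma adjusted p = 0.132) and -2.12 at A_30_P01021701 (limma adjusted p = 0.110). Neither passed the adjusted threshold. A_30_P01021701 was named for a high whole-muscle signal in Het against WT, which the ratio subtracts, so part of its loading difference follows from the choice. The 2 are counted among named probes only, and such splits were not counted over all probes.

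Among probes above background on all 16 arrays, 266 locus probes had a lower polysome ratio in Het than in WT in limma. The count was 0 without Het mouse 2, without Het mouse 3, without the replicate block and with array brightness as a term. With that term the median loading difference over the loci tested was -0.67 instead of -0.51 and its median SE 0.55 instead of 0.32. Whole-muscle brightness split by genotype, so brightness and genotype cannot be told apart here. The median locus probe, set against coding probes of similar signal, was above 0 in every WT mouse and below 0 in every Het mouse, and the Het minus WT difference of -0.61 over all tested members, -0.66 over those above background on all 16 arrays, was not tested.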

How the results depend on the processing

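The 356 polysome calls became 226 among probes above background on all 16 arrays, 237 with no filter, 0 within slide 1 or slide 2, 181 to 464 without 1 mouse, 219 without the replicate block, 209 by the methods' t-test and 235 at the study's threshold. The 0 loading calls became 151 with normexp, 170 in the authors' table, 268 among probes on all arrays and 728 at the study's threshold. In whole muscle 0 became 1 with no filter, 0 to 7 without 1 mouse, 241 at the study's threshold and 0 with the block. In polysomes 0 became 1 with no filter, 72 at the study's threshold and 0 with the block. In monosomes 18 became 0 with 75th percentile scaling, 98 with normexp, 118 in the authors' table, 91 with no filter, 0 and 1185 within slides 1 and 2, 5 with array brightness, 0 to 1689 without 1 mouse, 4 without WT polysome 2 and WT monosome 2 and 27 with the block. Polysome against monosome 0 became 717, 535 and 644 with percentile scaling, normexp and the authors' table, 621 on all arrays, 741 with slide as a term, 1102 within slide 2, 0 to 1499 without 1 mouse, 741 without those 2 arrays and 562 without the block. The 266 lower loading calls became 0 with array brightness, 0 without the block and 0 to 297 without 1 mouse. The WT median of 0.30 became 0.0888 with normexp, 0.11 in the authors' table and 0.00847 with no filter, 0.16 without WT mouse 2, 0.14 within slide 2 and 0.22 on all arrays, and the Het median of -0.40 became -0.15, -0.18 and -0.0521, -0.49 on all arrays, -0.64 and -0.11 within slides 1 and 2, and 0.0465 against non-coding RefSeq probes. The 517 probes with a correlation over 0.8 became 319 over 12 arrays, 304 without those 2 arrays and 317 to 561 without 1 mouse. Of 1373 recomputed values of named probes 10 changed sign, all at 4 of the brightest probes: A_30_P01025806 (-0.0427 with percentile scaling, -0.0731 within slide 1, -0.13 to 0.29 without 1 mouse), A_30_P01026230 (0.34 within slide 2, -0.31 to 0.18 without 1 mouse), A_30_P01020570 (0.38 within slide 2, -0.30 to 0.12 without 1 mouse) and A_30_P01031264 (-0.0518 within slide 1). The cause of these changes was not tested.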
